A study of Mus musculus with 21 samples.

Results

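Hox genes were examined in the mouse epidermis as a set chosen by name: every protein-coding mouse gene whose symbol is Hox, a cluster letter from a to d and a number. The set had 39 members among the 49315 gene identifiers of the count files, 11 in the HoxA cluster on chromosome 6, 10 in HoxB on chromosome 11, 9 in HoxC on chromosome 15 and 9 in HoxD on chromosome 2. Total RNA depleted of ribosomal RNA had been sequenced from epidermal sheets of mouse skin, in a study of the AP-2 transcription factors that Tfap2a and Tfap2b encode. The series had 21 samples in 7 groups of 3, and 13 of its files listed every gene at 0, so that 8 libraries held counts. At 6 months of age these were 3 strain-specific wild-type control libraries and 3 libraries labelled K14CreTfap2afl/flTfap2bfl/fl, called double knockout below. At 3 weeks of age they were 2 of the 3 libraries labelled K14CreTfap2bfl/fl, called Tfap2b knockout below. K14Cre expresses Cre recombinase from the promoter of keratin 14, which is active in basal keratinocytes, so the floxed alleles are targeted in keratinocytes. The labels state neither the body site of the skin nor whether the samples of a group came from separate animals, so the p-values below measure only the spread between these libraries.

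Hox genes encode homeodomain transcription factors that specify position along the body axis in the embryo. In each cluster the genes lie in the order of their paralog groups: low numbers are used at anterior levels, and high numbers, the posterior genes, at caudal and distal levels. Adult skin keeps a pattern of Hox expression that depends on body site and is best known from dermal fibroblasts. Hox proteins bind DNA together with partners of the Pbx and Meis families, silent Hox genes are held by Polycomb complexes, and Trithorax-type methyltransferases keep active ones on. Hoxc13 is unusual among posterior Hox genes for its role in the hair follicle and nail.

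The 8 libraries held 11318181 to 17746284 counts. Control replicates 1 and 2 had counts in 35794 and 39362 genes, against 23454 to 25537 in the other 6 libraries, and held a low signal in genes that are silent in skin. Across 1420 odorant and vomeronasal receptor genes the density was 1.61 and 3.19 counts per exonic kb in those controls and 0.0971 to 0.195 in the others. A Hox gene was therefore called above background in a library where the lower bound of the exact 95% Poisson interval of its count exceeded the receptor-gene density times its exonic length; the interval covers counting error only. The counts of the targeted genes do not show the labelled deletion. Counts per gene do not resolve the floxed exons, so the labels could not be checked from them. Tfap2a had 165, 140 and 210 counts per 1000000 counts (CPM) in control libraries against 229, 213 and 309 in double knockout libraries (edgeR log2 fold change 0.47, adjusted p = 0.118). Tfap2b had 57.3, 86.6 and 71.0 CPM against 53.8, 57.2 and 56.9 (edgeR log2 fold change -0.43, adjusted p = 0.111), and 44.9 and 71.7 CPM in the 2 Tfap2b knockout libraries. The groups are therefore named by their labels throughout, and directions rest on those labels. Keratinocyte markers reached summed levels of 18241 to 30182 CPM in every library. The first Tfap2b knockout library stood apart with 2865 CPM of 13 dermal fibroblast markers, against 45.7 to 218 CPM in the others. It had 14601 CPM of 7 sebaceous gland markers, against 702 to 1517 CPM in the others, and 411 CPM of 5 endothelial and 1949 CPM of 5 adipocyte markers, against at most 22.2 and 9.45 CPM.

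The RefSeq sequence just upstream of the 2 Hox genes past the test's threshold, Hoxa5 and Hoxa6, is given because Hoxa5 holds a copy of the palindrome that AP-2 proteins bind. Both are given 5′ to 3′ on the minus strand of GRCm38.p6, in lower case, with a match to GCCNNNGGC in capitals. The Hoxa5 window is chr6:52204588-52204837, 250 bases up to the base before the transcription start. The Hoxa6 window is chr6:52208723-52208922, 200 bases, with the 50 bases nearest the RefSeq start left out because they lie in an exon of the GENCODE M21 annotation.
Hoxa5: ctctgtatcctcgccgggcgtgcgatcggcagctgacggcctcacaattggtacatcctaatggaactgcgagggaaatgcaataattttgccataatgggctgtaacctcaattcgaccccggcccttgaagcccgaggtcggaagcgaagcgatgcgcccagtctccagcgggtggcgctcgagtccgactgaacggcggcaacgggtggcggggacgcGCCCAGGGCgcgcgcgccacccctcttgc
Hoxa6: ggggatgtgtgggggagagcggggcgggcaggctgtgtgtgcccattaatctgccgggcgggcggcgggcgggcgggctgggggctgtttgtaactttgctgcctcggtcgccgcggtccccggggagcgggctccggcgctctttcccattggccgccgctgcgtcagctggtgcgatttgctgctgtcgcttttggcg
The Hoxa5 window has 1 match, which begins 29 bases before the start, with 63.6% G and C and 28 CpG dinucleotides. The Hoxa6 window has 0 matches, 71.0% G and C and 22 CpG dinucleotides. The promoter table held 24 windows for 22 of the 39 Hox genes. In the 250 bases before each start, on both strands, GCCNNNGGC was found in 5 of these 24 windows (20.8%), those of Hoxa5, Hoxa13, Hoxb1, Hoxd9 and Hoxd13, against 4509 of all 32851 windows searched in the same way (13.7%). The Pbx-Hox motif TGATTNAT was found in 2 windows (8.33%), those of Hoxa2 and Hoxd11, against 928 of all (2.82%). A match is a string of letters and not a shown binding site.

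The epidermis had a Hox profile of anterior and middle genes from HoxA, HoxB and HoxC. HoxD and the posterior genes other than Hoxc13 were low or near background. Of the 39 genes, 21 were above background in all 8 libraries, 14 in 1 to 7 libraries and 4 in none (Hoxa11, Hoxb13, Hoxc10 and Hoxc12). Outside HoxD, 20 of the 22 genes of paralog groups 1 to 9 were above background in all 8, the exceptions being Hoxb1 and Hoxc9. Of the 12 genes of groups 10 to 13, Hoxc13 alone was above background in all 8. In HoxD, 0 of 9 genes were, under a rule that the raised background of controls 1 and 2 makes harder to meet there. Hoxd4 was above background in every library but controls 1 and 2, with 3 counts in control 3 and in each double knockout library. Hoxd8 was above background in every library but control 2 and double knockout 1. A mean of at least 1 CPM in a 6-month group was reached by 22 genes, 8 in HoxA, 8 in HoxB, 5 in HoxC and 1 in HoxD.

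**Figure D1:**
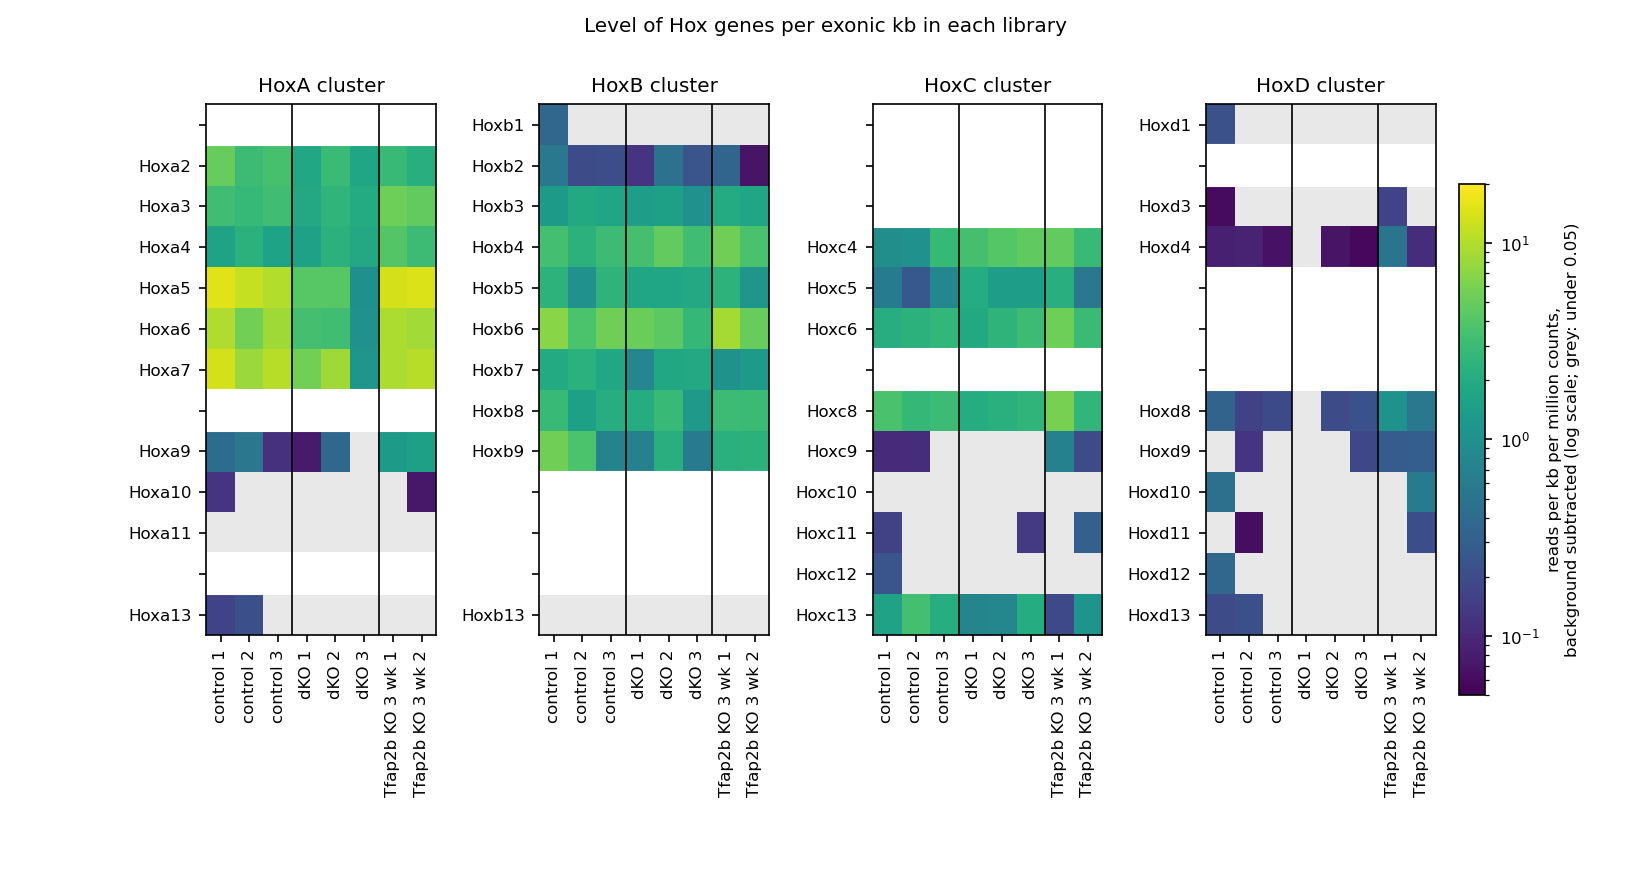
Level of Hox genes in each of the 8 libraries, in background-subtracted reads per exonic kb per 1000000 counts (RPKM, log colour scale; grey marks values under 0.05 and white marks paralog numbers a cluster lacks or that are not shown); columns are control and double knockout (dKO) libraries at 6 months and Tfap2b knockout libraries at 3 weeks. Hoxa5 to Hoxa7 are the brightest block in the controls and in the Tfap2b knockout libraries, and HoxD and groups 10 to 13 other than Hoxc13 are mostly grey.

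Per exonic kb and after background subtraction, the highest mean levels over the 8 libraries were those of 3 adjacent genes: Hoxa5 with 9.34 reads per kb per 1000000 counts (RPKM), Hoxa7 with 8.45 and Hoxa6 with 6.22. Hoxb6, a middle gene of HoxB, followed with 5.29 RPKM and Hoxb4 with 3.63. Hoxa3, Hoxc4, Hoxc8, Hoxa2 and Hoxc6 lay between 3.19 and 2.85 RPKM, a range smaller than the spread of any one of them over the libraries. The lowest of the 22 were Hoxa9 (0.546), Hoxd8 (0.348) and Hoxb2 (0.277). In the controls the mean RPKM was 12.3 for Hoxa5, 10.8 for Hoxa7, 7.97 for Hoxa6 and 5.36 for Hoxb6. In the double knockout libraries the order was Hoxa7 (5.05), Hoxb6 (4.11), Hoxc4 (4.08), Hoxb4 (3.77) and Hoxa5 (3.16). Of the 39 genes, 23 share no exon bases with another gene, and 7 share over 20%: Hoxd3, Hoxb3, Hoxd4, Hoxa11, Hoxb2, Hoxa3 and Hoxa7. Strand use in the counting is not given in the sources used here, so the levels of those 7 may include reads of overlapping or antisense genes.

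At 6 months Hoxa5 and Hoxa6 were lower in the double knockout libraries than in the controls, by 4.12-fold and 3.25-fold. They were the only members past the threshold, 2 of the 21 tested (9.52%), while 14.9% of the 17755 genes tested in the same fit were called, 8.59% lower and 6.26% higher. The share among Hox genes is thus not above that of all genes. DESeq2 called 6 of the 21 (Hoxa3, Hoxa5, Hoxa6, Hoxb9, Hoxc4 and Hoxc5) and 21.6% of all genes, and edgeR without control 3 called 8 of 25 Hox genes and 35.9% of all genes. Of the 8, Hoxc4 and Hoxc5 were higher in the double knockout libraries. Hoxa5, Hoxa6 and Hoxb9 were lower, as were Hoxa13, Hoxd3 and Hoxd13, which had 9 to 15 counts in each of controls 1 and 2 and at most 1 in every other 6-month library. For Hoxa13, Hoxd3 and Hoxd13 the receptor-gene density corresponds to 3.98, 6.74 and 3.99 counts in control 1 and 7.89, 13.4 and 7.92 in control 2. Hoxa13 and Hoxd13 were above background in control 1 only, and Hoxd3 in neither control. With control 1, control 2 or double knockout 1 left out 0 Hox genes were called, and with double knockout 2 or 3 left out 1, Hoxa5. The other 18 Hox genes did not pass the filter on low counts. The test was edgeR's quasi-likelihood test, called at a Benjamini-Hochberg adjusted p under 0.05 over all 17755 genes, and log2 fold changes are double knockout over control. Of the 21 log2 fold changes, 18 were below 0 and 3 above (Hoxb4, Hoxc4 and Hoxc5). Their median was -0.58, and that of all genes tested was -0.04. At an unadjusted p under 0.05 there were 8 of 21 (38.1%), against 32.0% of all genes. The 2 groups of 3 libraries did not overlap in CPM for 8 of the 21: Hoxa2, Hoxa3, Hoxa5, Hoxa6, Hoxa7 and Hoxc8 were lower and Hoxc4 and Hoxc5 were higher. Over all genes 38.7% did not overlap, 16.3% lower and 22.5% higher.

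**Figure D2:**
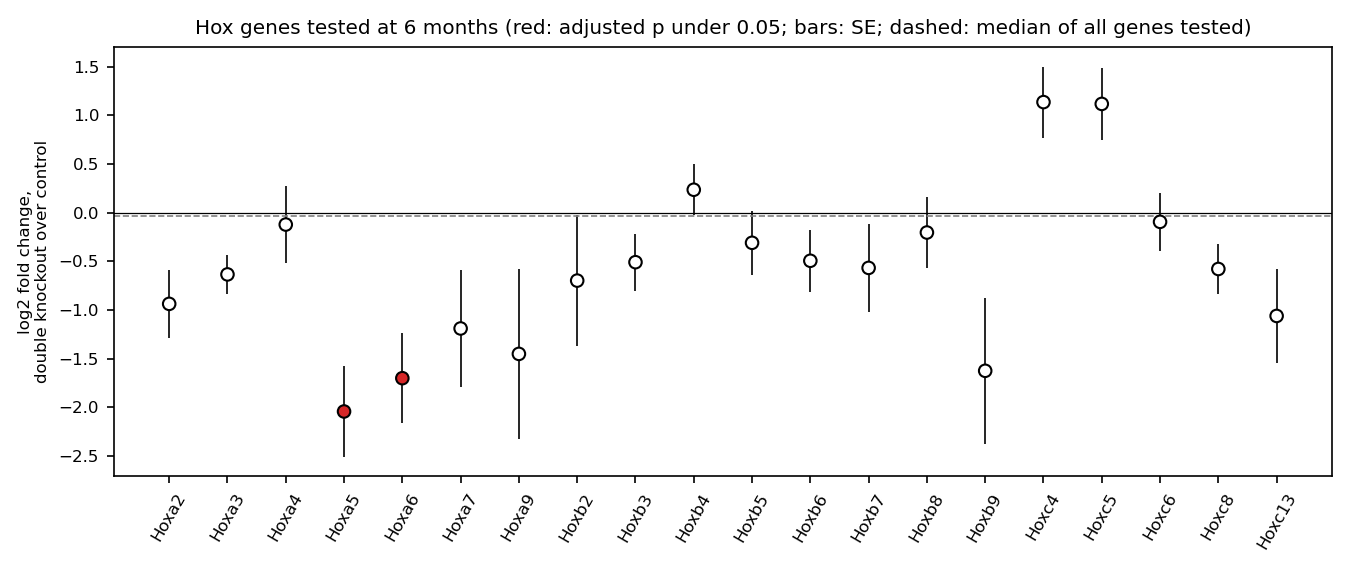
Log2 fold change (double knockout over control at 6 months, y axis) of Hox genes tested, in cluster order on the x axis; bars are standard errors, red points have an adjusted p under 0.05, and the dashed line is the median of all genes tested. Hoxa5 and Hoxa6 are the 2 red points, at -2.04 and -1.70, and Hoxb4, Hoxc4 and Hoxc5 are the points above 0.

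Hoxa5 is a middle HoxA gene with known roles in lung, spine and mammary development, at chr6:52201754-52204587. It had 28.2, 22.9 and 18.9 CPM in control libraries against 7.97, 7.91 and 1.92 CPM in double knockout libraries. The groups did not overlap, and double knockout replicate 3 was the lowest of the 6. The means were 23.3 ± 4.69 and 5.93 ± 3.48 CPM (SD over 3 libraries; edgeR log2 fold change -2.04 with SE 0.46, adjusted p = 0.0224). In the Tfap2b knockout libraries Hoxa5 had 25.6 and 27.7 CPM, inside the range of the 6-month controls. The call held under 12 of 16 alternative settings, with log2 fold changes from -2.34 to -1.58. It was lost without control 1 (edgeR adjusted p = 0.0849), control 2 (0.0573) or double knockout 1 (0.0568), and with controls 1 and 2 both left out (log2 fold change -1.72, adjusted p = 0.305).

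Hoxa6, the next gene of the cluster, lies at chr6:52206288-52208722. It had 8.64, 5.12 and 7.49 CPM in control libraries against 2.97, 2.80 and 0.902 CPM in double knockout libraries. Every control was above every double knockout library, and replicate 3 of the double knockout was again the lowest. The means were 7.08 ± 1.79 and 2.22 ± 1.15 CPM (SD over 3 libraries; edgeR log2 fold change -1.70 with SE 0.46, adjusted p = 0.0333). The Tfap2b knockout libraries had 8.33 and 7.59 CPM. The call held under 10 of 16 alternatives, with log2 fold changes from -1.96 to -1.30. It was lost without control 1 (edgeR adjusted p = 0.0959), control 2 (0.056) or any one of the double knockout libraries (0.0842, 0.0774 and 0.0751), and without controls 1 and 2 (0.168).

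Hoxa7, the third of these neighbours, is known from its expression in keratinocytes. It had 39.9, 24.3 and 30.0 CPM in control libraries against 16.1, 24.2 and 3.38 CPM in double knockout libraries. The groups were separated by a narrow gap, between control 2 and double knockout 2. Its difference, -1.19 on the log2 scale (SE 0.61, edgeR adjusted p = 0.222), did not pass the threshold here or under any of the 16 alternatives. The Tfap2b knockout libraries had 27.4 and 30.3 CPM. Double knockout replicate 3 was the lowest library for all 3 neighbours, and the other 2 double knockout libraries differed most from each other in Hoxa7.

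Some markers of other cell types moved in the same comparison. Since the sheet holds several cell types, fewer cells of a type and less RNA per cell cannot be told apart in bulk RNA. Of the 13 dermal fibroblast markers, 11 were tested, 3 were lower (Col1a1, Col1a2 and Col3a1) and 2 higher (Fbln1 and Thy1), or 45.5% called against 14.9% of all genes. Col3a1 and Thy1 stayed past the threshold with any 1 library left out. Col1a1 and Col1a2 were lost without any one of the double knockout libraries, and Fbln1 without control 1, double knockout 2 or double knockout 3. Of the 11, 9 had log2 fold changes below 0 and 2 above, with a median of -1.47. The groups did not overlap for 6 lower and 2 higher markers, against 16.3% lower and 22.5% higher of all genes. The summed level of the 13 was 84.7 to 218 CPM in the controls and 112 to 139 CPM in the double knockout libraries. Within this sum Thy1 rose from 23.3 ± 7.34 to 83.0 ± 23.5 CPM (SD, n = 3 each), so the sum does not follow most of the markers. The collagen gene Col1a1 had 38.2 ± 23.3 and 8.44 ± 3.62 CPM (SD, n = 3 each). Twist2, a dermal transcription factor, was at 0 in the 3 double knockout libraries, but it did not pass the filter on low counts and was not tested. Of 8 hair follicle stem cell markers, 2 were lower (Lgr5 and Tcf7l1) and 1 was higher (Postn), or 37.5% called against 14.9% of all genes. Of the 8, 7 had log2 fold changes below 0 and 1 above, with a median of -1.18. The groups did not overlap for 4 lower markers and 1 higher, against 16.3% lower and 22.5% higher of all genes. The sums were 1043 to 1711 CPM in the controls and 830 to 1532 CPM in the double knockout libraries. They include the rise of Postn from 130 ± 74.3 to 559 ± 266 CPM (SD, n = 3 each). Lgr5 stayed past the threshold with any 1 library left out, Tcf7l1 was lost without control 2, double knockout 1 or double knockout 2, and Postn stayed without control 3 only.

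The 7 sebaceous gland markers summed to 1420 to 1517 CPM in the controls and 702 to 827 CPM in the double knockout libraries, with no overlap. Scd1, a fatty acid desaturase of the gland, fell from 780 ± 65.4 to 193 ± 28.1 CPM (SD, n = 3 each; edgeR log2 fold change -2.09, adjusted p = 0.000132) and stayed past the threshold with any 1 library left out. Dgat2 also fell (-0.67, edgeR adjusted p = 0.03) and stayed without control 3 or double knockout 2 only. These calls were 33.3% of the 6 sebaceous markers tested, of which 5 had log2 fold changes below 0. The sum rests mostly on Scd1, Fasn and Dgat2. Awat2 was higher without overlap (1.41 ± 0.431 and 2.29 ± 0.278 CPM) and Mgst1 overlapped (7.96 ± 5.85 and 7.33 ± 4.24 CPM). Neither passed the threshold. The 6 skeletal muscle markers summed to 68.8, 83.4 and 34.1 CPM in the controls and 13.3 to 18.4 CPM in the double knockout libraries. Of the 3 muscle markers tested, Ttn and Acta1 fell (66.7% called, against 14.9% of all genes). The background of controls 1 and 2 was not taken off these values, so the size of the fall may include it. Ttn stayed past the threshold with any 1 library left out and Acta1 was lost with each. Of 7 keratinocyte markers, 3 were called higher (Krt5, Krt14 and Krt1) and 0 lower, or 42.9%. These 3 stayed with any 1 library left out. Lor had 456 ± 248 CPM in the controls and 198 ± 88.9 in the double knockout libraries (SD, n = 3 each). Its groups did not overlap, and it missed the threshold (log2 fold change -1.27, edgeR adjusted p = 0.131). Of 7 Langerhans and myeloid markers, H2-Ab1 alone was called, lower (14.3%), and stayed without control 3 or double knockout 1 only. Among 6 T cell markers Thy1, counted above, was the only call (16.7%). Of the dermal papilla, melanocyte, endothelial, Merkel cell and adipocyte markers tested (5, 4, 3, 2 and 1), 0 passed. The part of these cells in the Hoxa5 and Hoxa6 difference was not tested. In the second Tfap2b knockout library, where the fibroblast sum was lowest (45.7 CPM) and Twist2, Lum and Mfap5 were at 0, Hoxa5 stood at 27.7 CPM. In the first, with 2865 CPM of the same markers, Hoxa5 stood at 25.6 CPM. These 2 libraries are of another age and genotype, were not tested against another group and do not bear on the 6-month difference.

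Hoxa2, Hoxa3 and Hoxa4 had the same sign of difference and smaller sizes. Hoxa2, a determinant of the second branchial arch, had 9.05, 5.92 and 6.19 CPM in the controls, 3.11, 5.25 and 3.10 in the double knockout libraries and 5.16 and 3.76 in the Tfap2b knockout libraries (edgeR log2 fold change -0.94 with SE 0.35, adjusted p = 0.0899). Its 6-month groups did not overlap.

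Hoxa3, needed for thymus and parathyroid formation, varied least over the controls, relative to its mean, among the 21 genes tested. It had 19.8, 18.3 and 19 CPM there, 11.2, 15.2 and 12.2 CPM in the double knockout libraries and 32.4 and 28.3 CPM in the Tfap2b knockout libraries. Each group was clear of the others, with the 3-week libraries highest. Between the 6-month groups its difference of -0.63 on the log2 scale (SE 0.20, edgeR adjusted p = 0.0584) missed the threshold. Hoxa3 shares 27.1% of its exon bases with 5 other transcripts of the cluster. Hoxa4 had 2.74, 4.15 and 2.60 CPM in the controls, 2.46, 3.75 and 2.93 in the double knockout libraries and 6.40 and 4.88 in the Tfap2b knockout libraries. Its 6-month groups overlapped (edgeR log2 fold change -0.12 with SE 0.40, adjusted p = 0.852), and the sign turned when control 2 or double knockout 1 was left out.

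The 2 expressed genes of group 9 shared a feature within the controls: control replicate 3 was far below the other 2. Hoxb9, known for roles in the rib cage and mammary gland, had 14.3, 10.2 and 1.89 CPM in the controls, 1.81, 5.45 and 1.52 in the double knockout libraries and 5.70 and 6.07 in the Tfap2b knockout libraries. Hoxa9, a gene of posterior patterning and blood stem cells, had 3.07, 4.59 and 0.716 CPM, then 0.507, 2.18 and 0.282, then 7.40 and 8.39 in the same order. The log2 fold changes were -1.62 for Hoxb9 (SE 0.75, edgeR adjusted p = 0.164) and -1.45 for Hoxa9 (SE 0.87, edgeR adjusted p = 0.244), with control 3 inside the double knockout range in both. Against control 3 alone both signs turned, to 0.54 and 0.35. Without control 3 the Hoxb9 value was -2.02 (edgeR adjusted p = 0.0148). Gm53, a noncoding gene of the same cluster between Hoxb9 and Hoxb13, had 12.3, 13.2 and 1.63 CPM in the controls, 4.13, 4.64 and 3.10 in the double knockout libraries and 8.40 and 7.19 in the Tfap2b knockout libraries. Controls 1 and 2 had 172 and 116 counts of Hoxb9, where the receptor-gene density over its exons corresponds to 4.14 and 8.21 counts.

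In HoxB, groups 2 to 9 were above background in all 8 libraries and no member passed the threshold. Hoxb4, a regulator of blood stem cells, was the only HoxB gene with a log2 fold change above 0 (0.24 with SE 0.26, adjusted p = 0.556). It had 8.80, 6.71 and 7.81 CPM in the controls, 8.84, 12.1 and 8.17 in the double knockout libraries and 13.9 and 9.27 in the Tfap2b knockout libraries, with every double knockout library above 2 of the 3 controls. Hoxb6, the HoxB gene of highest level, had 13.9, 7.69 and 10.8 CPM, then 10.3, 8.66 and 5.30, then 17.4 and 9.83. Its 6-month groups overlapped (edgeR log2 fold change -0.49 with SE 0.32, adjusted p = 0.306).

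Hoxb3, which shares 52.9% of its exon bases with the antisense gene Hoxb3os, had 6.15, 9.28 and 7.49 CPM in the controls, 6.01, 6.41 and 4.45 in the double knockout libraries and 8.40 and 7.35 in the Tfap2b knockout libraries. Hoxb5 had 6.98, 3.71 and 6.90 CPM, then 4.92, 4.84 and 5.13, then 6.63 and 3.20. The 3 double knockout values of Hoxb5 lay close together, between those of the controls. Hoxb7 had 3.16, 3.98 and 2.73 CPM, then 1.23, 2.73 and 2.87, then 1.62 and 1.92. Hoxb8, known for its role in grooming behaviour through microglia, had 7.81, 4.68 and 5.47 CPM, then 5.5, 7.57 and 3.38, then 8.02 and 7.83. For these 4 genes the log2 fold changes were -0.51, -0.31, -0.57 and -0.20, each with overlapping groups and edgeR adjusted p values of 0.249 to 0.73. Hoxb2 was the lowest HoxB gene tested, with 2.41, 1.68 and 0.781 CPM, then 0.507, 1.64 and 0.845, then 1.23 and 0.24 (edgeR log2 fold change -0.70 with SE 0.67, adjusted p = 0.456).

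In HoxC, the 2 most anterior genes had values above 0 and the 3 more posterior ones tested values below 0. Hoxc4, at chr15:103018934-103036852, had 2.82, 3.36 and 7.16 CPM in the controls, 8.84, 10.6 and 12 in the double knockout libraries and 12.3 and 7.35 in the Tfap2b knockout libraries. Every double knockout library was above every control, and control 3 was the control nearest to them. The means were 4.45 ± 2.37 and 10.5 ± 1.59 CPM (SD over 3 libraries; edgeR log2 fold change 1.14, SE 0.37), and the edgeR adjusted p of 0.0586 missed the threshold. Of 16 alternatives 4 put Hoxc4 past it, among them DESeq2 (log2 fold change also positive, adjusted p = 0.0208) and the fit without control 3 (1.73, edgeR adjusted p = 0.00453). Against control 3 alone the value was 0.49.

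Hoxc5 is the next gene of the cluster after Hoxc4. It had 2.24, 1.68 and 2.47 CPM in the controls, 6.45, 4.36 and 4.40 in the double knockout libraries and 6.71 and 1.68 in the Tfap2b knockout libraries. The 6-month groups did not overlap, and of the 2 libraries of the 3-week group one lay with the highest double knockout library and the other with the lowest control. The means were 2.13 ± 0.409 and 5.07 ± 1.19 CPM (SD over 3 libraries; edgeR log2 fold change 1.12 with SE 0.37, adjusted p = 0.0613). It passed the threshold under 2 of 16 alternatives, DESeq2 and the fit without control 3 (1.31, edgeR adjusted p = 0.0285), and its sign was positive under all 16.

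Hoxc6, a middle gene used in the thorax and mammary gland, had 5.40, 6.36 and 6.38 CPM, then 4.63, 5.86 and 7.33, then 13 and 7.11 in controls, double knockout and Tfap2b knockout libraries. Its difference was close to 0 (edgeR log2 fold change -0.09 with SE 0.30, adjusted p = 0.85). Hoxc8, a gene of thoracic identity, had 10.5, 8.48 and 8.53 CPM, then 5.79, 6.34 and 7.16, then 16.4 and 7.35. Its 6-month groups did not overlap, yet the difference missed the threshold (edgeR log2 fold change -0.58 with SE 0.25, adjusted p = 0.142). For Hoxc4, Hoxc5, Hoxc6 and Hoxc8 the first Tfap2b knockout library, the one with high sebaceous, dermal, fat and vessel markers, was above the second.

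Hoxc13 was the only posterior gene at a level like that of the middle genes. It is required for hair shaft keratin expression. It had 4.24, 8.84 and 5.14 CPM in the controls, 1.88, 1.98 and 5.02 in the double knockout libraries and 0.463 and 2.72 in the Tfap2b knockout libraries. Double knockout 3 lay between controls 1 and 3, so the groups overlapped (means 6.07 ± 2.44 and 2.96 ± 1.78 CPM, SD over 3 libraries; edgeR log2 fold change -1.06 with SE 0.48, adjusted p = 0.147). The library with the least Hoxc13 was the first Tfap2b knockout library. In a list of 19 hair shaft and hair regulator genes linked to Hoxc13, 13 were tested and 4 passed the threshold, 2 higher and 2 lower (30.8%, against 14.9% of all genes). Foxn1, a transcription factor of hair shaft and nail differentiation, rose from 22.6 ± 10.1 to 46.2 ± 7.64 CPM (edgeR log2 fold change 0.95, adjusted p = 0.0488). Dsc2, a desmosomal cadherin, rose from 12.4 ± 3.32 to 54.3 ± 0.626 CPM (2.04, edgeR adjusted p = 0.000631). Msx2 fell from 7.96 ± 1.44 to 3.53 ± 0.353 CPM (-1.22, edgeR adjusted p = 0.0226). Lef1, a transcription factor of hair matrix and Wnt signalling, fell from 3.18 ± 1.31 to 0.518 ± 0.386 CPM (-2.38, edgeR adjusted p = 0.0393; SD, n = 3 in each group of these 4 genes). Dsc2 stayed past the threshold with any 1 of the 6 libraries left out. Foxn1 and Lef1 did so without control 3 only, and Msx2 without control 1 or control 3.

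**Figure D3:**
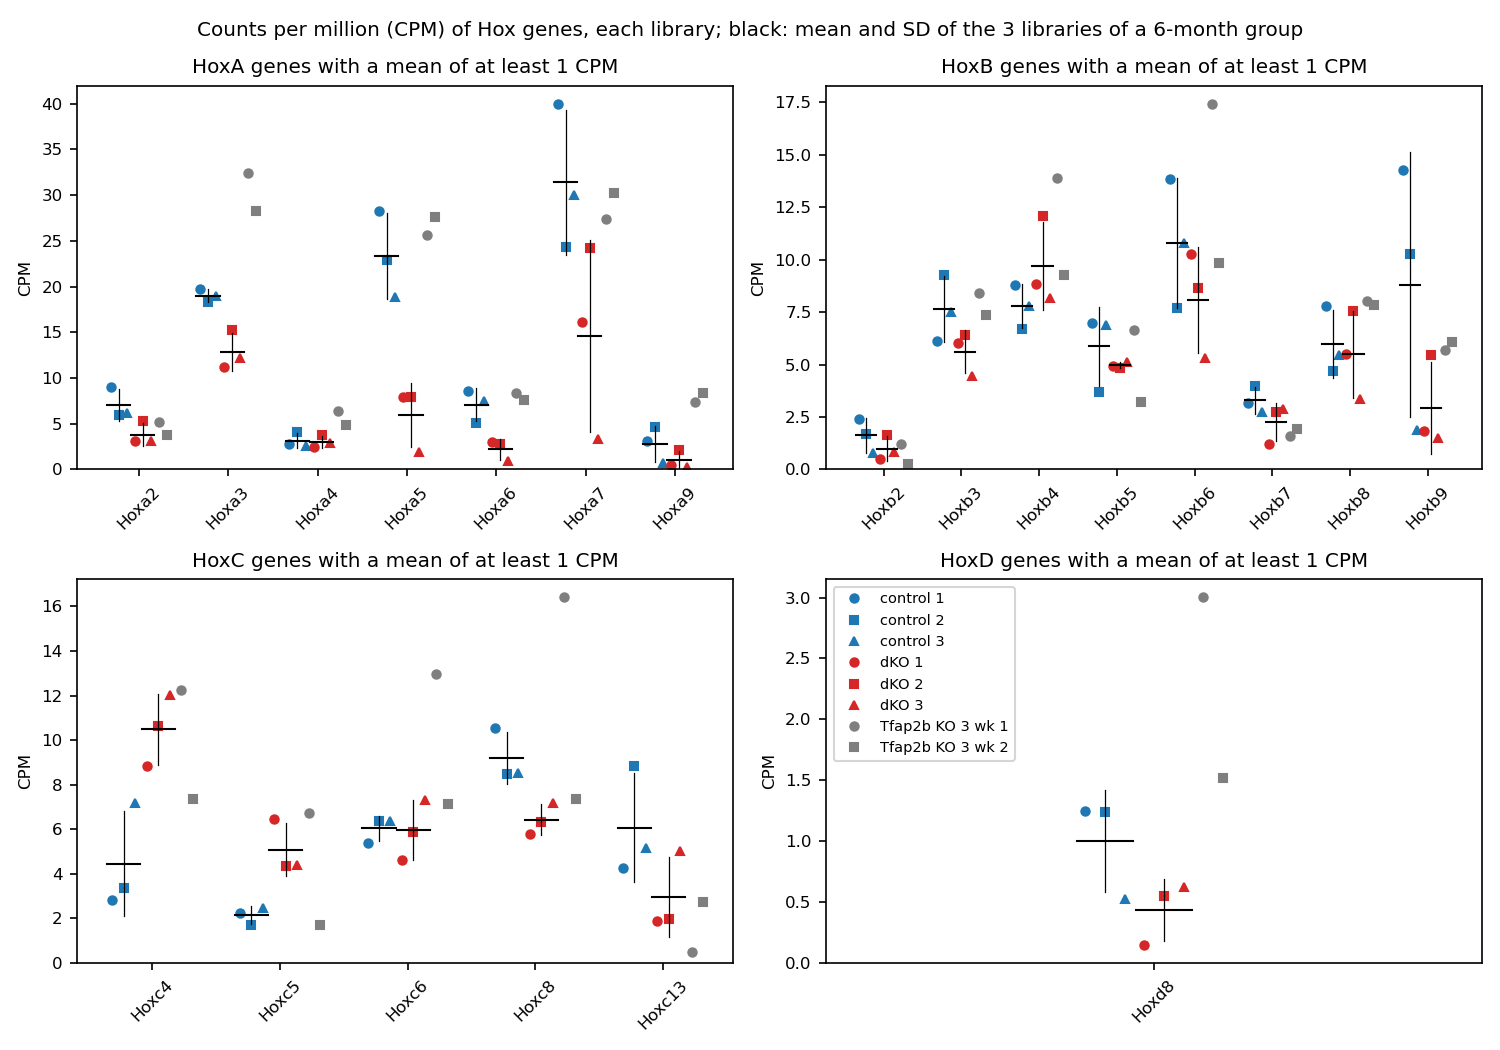
CPM (y axis, linear) of Hox genes whose mean in a 6-month group is 1 CPM or more, by cluster on separate scales; blue, red and grey symbols are single control, double knockout (dKO) and Tfap2b knockout libraries, and black bars are the mean and SD of 3 libraries. The red symbols lie below the blue ones for Hoxa5 and Hoxa6 and above them for Hoxc4 and Hoxc5, and the third control (blue triangle) lies low for Hoxa9 and Hoxb9.

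In sum over all 39 genes, Hox counts made up 216, 180 and 164 CPM of the control libraries, 113, 145 and 96.4 CPM of the double knockout libraries and 235 and 193 CPM of the Tfap2b knockout libraries. Every double knockout library was below every control, also after background subtraction (203, 154 and 164 against 112, 145 and 96.1 CPM). The clusters did not share this equally. HoxA had 117, 92.9 and 89.7 CPM in control libraries against 46.2, 65.3 and 27.3 CPM in double knockout libraries, without overlap. HoxB had 64.8, 48.7 and 43.9 CPM against 39.1, 49.4 and 31.7 CPM, with overlap. HoxC had 27.2, 30.2 and 29.8 CPM against 27.6, 29.2 and 36.2 CPM, a like range in both groups.

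As shares of the background-subtracted Hox counts, HoxA held 55.7%, 55.2% and 54.7% in the controls and 41.0%, 45.1% and 28.3% in the double knockout libraries. HoxC held 12%, 16.4% and 18.2% in the controls and 24.4%, 20.2% and 37.6% in the double knockout libraries. The HoxB share was 26.7% to 30.3% in the controls and 32.9% to 34.5% in the double knockout libraries. Within HoxA the share that differed was that of the middle genes. Hoxa5 to Hoxa7 made up 37.5%, 33.0% and 34.4% in the controls and 24.0%, 24.2% and 6.45% in the double knockout libraries. Hoxc4 and Hoxc5 together made up 2.13%, 2.24% and 5.88% in the controls and 13.5%, 10.4% and 17.1% in the double knockout libraries. In the Tfap2b knockout libraries Hoxa5 to Hoxa7 held 26.1% and 33.9%, and Hoxc4 with Hoxc5 8.07% and 4.67%. These shares rest on the same counts as the single genes and add no separate evidence, and a share falls in one cluster when it rises in another.

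**Figure D4:**
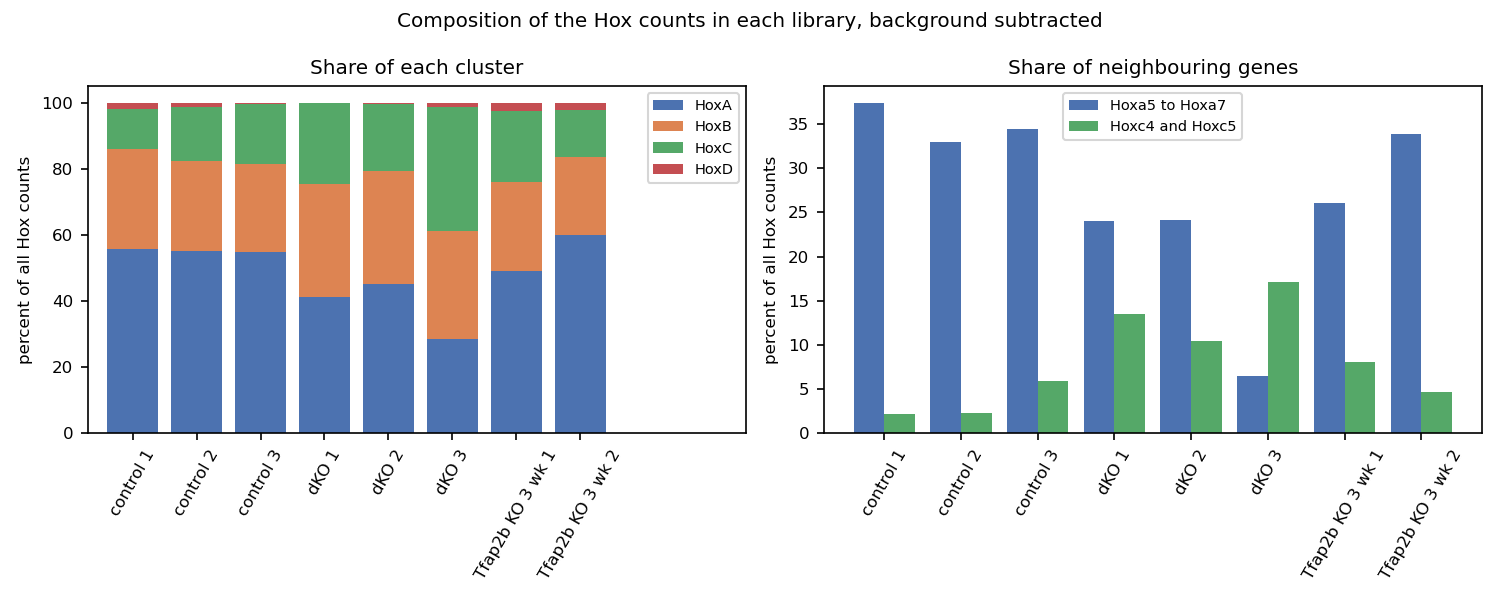
Composition of the background-subtracted Hox counts in each of the 8 libraries, in percent of all Hox counts (y axis): share of each cluster (left, stacked bars) and of Hoxa5 to Hoxa7 and of Hoxc4 with Hoxc5 (right). HoxA takes 54.7% to 55.7% in the 3 controls and 28.3% to 45.1% in the 3 double knockout (dKO) libraries.

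By position within the clusters, the middle groups 4 to 8 held most Hox counts in every library, 62.1% to 76.3%. Groups 1 to 3 held 19.9% to 24.0%. Group 9 held 8.14% and 8.50% in controls 1 and 2, 1.59% in control 3, 1.94%, 5.28% and 2.23% in the double knockout libraries and 6.53% and 8.02% in the Tfap2b knockout libraries. Control 3 was the lowest of the 8 libraries for this group, and controls 1 and 2 were the highest.

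The 17 Hox genes under 1 CPM in both 6-month groups were 8 of the 9 HoxD genes, the posterior genes of HoxA, HoxB and HoxC other than Hoxc13, and Hoxb1 and Hoxc9. Hoxd8, the most abundant HoxD gene, lay just above that level, with 1.25, 1.24 and 0.521 CPM in the controls, 0.145, 0.545 and 0.62 CPM in the double knockout libraries and 3.01 and 1.52 CPM in the Tfap2b knockout libraries. It did not pass the filter on low counts and was not tested. In control replicate 2 the 17 genes had 131 counts in all, against 134 expected from the receptor-gene density over the same exonic length. Control replicate 1 had 131 counts against 67.8 expected, with 6 of the 17 genes above background. In control 3 and double knockout 1 and 2 there were 6, 3 and 4 counts against 6.21, 8.22 and 4.48 expected, and 13, 16 and 15 of the genes at 0. Double knockout 3 had 16 counts against 5.55 expected, with 3 of the 17 genes above background and 13 at 0. A count of 0 allows up to 3 counts, or 0.195, 0.217 and 0.205 CPM in control 3 and double knockout 1 and 2 and 0.169 CPM in double knockout 3.

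**Figure D5:**
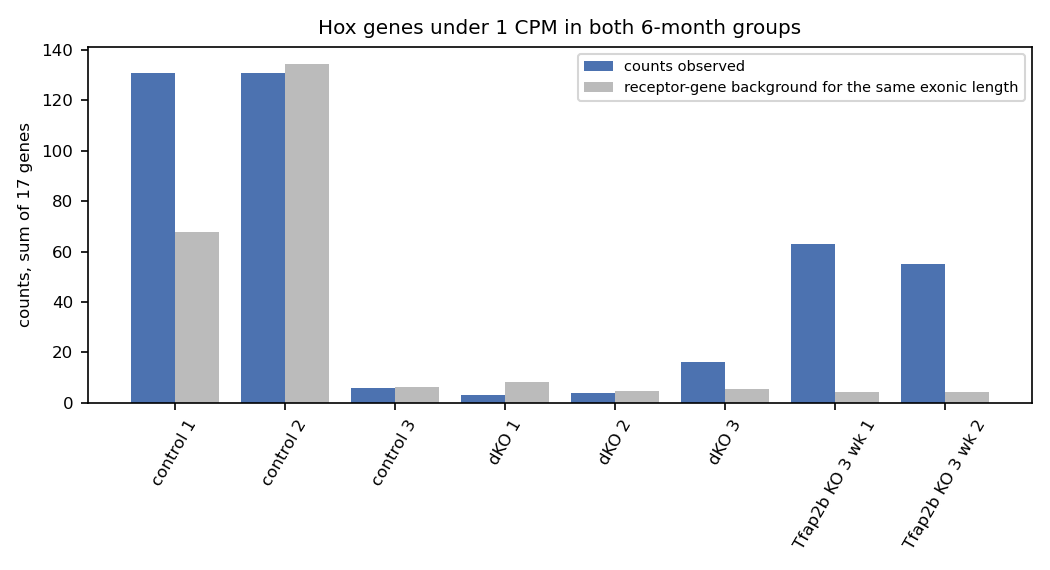
Summed counts of the 17 Hox genes under 1 CPM in both 6-month groups in each library (blue, y axis) beside the counts expected from the receptor-gene density for the same exonic length (grey). In control 2 the bars stand at 131 and 134, and in the 2 Tfap2b knockout libraries the observed 63 and 55 counts stand over 4.09 and 4.39.

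In the 3-week Tfap2b knockout libraries the same 17 genes had 63 and 55 counts over an expected 4.09 and 4.39, and the 2 libraries differed in which genes these were. The first had 22 counts of Hoxc9, 19 of Hoxd4, 9 of Hoxd3 and 8 of Hoxd9, and 4 counts over the 11 posterior genes other than Hoxc13. The second had 35 counts over those 11 genes, with 13 of Hoxd10, 11 of Hoxd11 and 8 of Hoxc11, beside 8 of Hoxd9. Double knockout 3 had 7 counts of Hoxd9 and 5 of Hoxc11. Hoxd10, a gene of distal limb patterning, was at 0 in control 3, in all 3 double knockout libraries and in the first Tfap2b knockout library. The second Tfap2b knockout library also had 81.3 CPM of Krt36 and 102 CPM of Krt84, keratins of hard structures such as nail and tongue papillae. The other 7 libraries had 0.136 to 7.48 CPM of Krt36 and 0.581 to 9.64 CPM of Krt84; these 2 keratins were singled out after their values were seen.

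A list of 19 antisense, noncoding and little-studied genes within and beside the clusters had 7 members tested, of which 0 passed the edgeR threshold. At an unadjusted p under 0.05 there were 2 (28.6%, against 32.0% of all genes). DESeq2 called 1 of the 7, and 21.6% of all genes. Their median log2 fold change was -0.85. 5730596B20Rik, listed as protein-coding in GENCODE M21 and overlapping exons of Hoxa3, had 5.56, 6.63 and 5.40 CPM in the controls and 2.68, 3.82 and 1.30 in the double knockout libraries (-1.21, edgeR adjusted p = 0.0716). Hoxaas2 had 5.73, 5.65 and 3.71 CPM against 3.48, 2.66 and 2.54 CPM (-0.85, edgeR adjusted p = 0.123). Both were without overlap. Hotairm1, a noncoding RNA of the HoxA cluster, had 7.06, 4.68 and 4.69 CPM against 5.21, 6.27 and 5.97 CPM, with overlap (0.01, edgeR adjusted p = 0.981). Hotair, the HoxC noncoding RNA of distal skin, had 3 and 10 counts in controls 1 and 2 and 0 in the other 6 libraries.

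Among 24 protein-coding genes beside the 4 clusters, 20 were tested, 2 rose and 0 fell (10%, against 14.9% of all genes called and 6.26% higher). Both lie next to HoxC on chromosome 15. Smug1, a DNA repair glycosylase, rose from 11.8 ± 2.97 to 23.0 ± 1.47 CPM (SD over 3 libraries; edgeR log2 fold change 0.88 with SE 0.22, adjusted p = 0.0268). Cbx5, which encodes the heterochromatin protein HP1α, rose from 62.6 ± 8.22 to 106 ± 8.88 CPM (0.68 with SE 0.14, adjusted p = 0.015). Each is above 0 like Hoxc4 and Hoxc5, the cluster's genes of the same end, which did not pass. Of the 20 neighbours tested, 11 had log2 fold changes above 0 and 9 below. This count pools the 4 clusters and does not show whether values above 0 are more frequent beside HoxC, which was not tested. With 1 library left out, Smug1 stayed past the threshold without control 3 only, and Cbx5 without control 1, control 3 or double knockout 3.

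Of 10 genes of Hox partners (the Pbx, Meis and Pknox families and the Pbx-binding Pbxip1) 10 were tested, and 0 passed the edgeR threshold. At an unadjusted p under 0.05 there were 4 (40%, against 32.0% of all genes). DESeq2 called 1 of the 10, and 21.6% of all genes. Meis1 had 23.0 ± 4.97 CPM in the controls and 32.6 ± 4.29 in the double knockout libraries (SD over 3 libraries; log2 fold change 0.42, edgeR adjusted p = 0.173), and Meis2 had 37.7 ± 14.1 and 28.0 ± 5.05 CPM (-0.51, edgeR adjusted p = 0.214). The median of the 10 was -0.52.

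Of 29 Polycomb subunits, all tested, 5 fell and 0 rose (17.2%, against 14.9% of all genes called and 8.59% lower). Their log2 fold changes were below 0 for 20 and above 0 for 9. The groups did not overlap for 10 lower and 4 higher subunits, against 16.3% lower and 22.5% higher of all genes. Phf1, an accessory subunit of complex 2, fell from 20.2 ± 4.19 to 9.44 ± 1.23 CPM (edgeR log2 fold change -1.16 with SE 0.23, adjusted p = 0.0116). Rybp fell from 61.9 ± 17.1 to 31.2 ± 1.52 CPM (-1.06 with SE 0.20, adjusted p = 0.0109). Cbx2 and Rnf2, the latter a ubiquitin ligase of complex 1, each had a log2 fold change of -0.67 (edgeR adjusted p = 0.0391 and 0.0182; SD, n = 3 in each group of these genes). Jarid2 and Aebp2, abundant subunits of complex 2, had -0.29 and -0.20 and did not pass. With 1 library left out, Phf1 and Rybp were lost without double knockout 1, Rnf2 without any one of the double knockout libraries, and Cbx2 without any one of the 6 libraries.

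Of 15 Trithorax-type genes, all tested, 1 passed (6.67%, against 14.9% of all genes). Ash2l, a core subunit of the histone H3 lysine methyltransferases, rose from 32.6 ± 5.03 to 53.4 ± 4.21 CPM (SD over 3 libraries; edgeR log2 fold change 0.64 with SE 0.16, adjusted p = 0.0294). Kmt2a, the methyltransferase best known for keeping Hox genes on, had 392 ± 75.5 and 366 ± 40.7 CPM (-0.17, edgeR adjusted p = 0.491). Of 13 regulators known to act upstream of Hox genes 8 were tested and 3 passed (37.5%, against the same 14.9%), all of them retinoid receptors. Rara fell from 67.5 ± 9.46 to 36.7 ± 1.30 CPM (-0.96 with SE 0.16, adjusted p = 0.00545). Its partners Rxra (0.52, edgeR adjusted p = 0.0467) and Rxrb (0.76, edgeR adjusted p = 0.0284) rose, and Rarg, the abundant epidermal receptor, had 0.27 (edgeR adjusted p = 0.312). Rara stayed past the threshold with any 1 library left out, while Ash2l, Rxra and Rxrb did so without control 3 only. Of 22 other transcription factors of body position 8 were tested and 0 passed the edgeR threshold. At an unadjusted p under 0.05 there was 1 (12.5%, against 32.0% of all genes), and DESeq2 called 0 of the 8 and 21.6% of all genes. Prrx1, a limb and dermal factor singled out after its values were seen, had 32.6 CPM in the first Tfap2b knockout library and at most 5.21 CPM elsewhere.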

How the data were processed

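The authors deposited whole-number counts per gene, not normalized, with gene coordinates and exonic lengths, per the file headers. Per the submitters' processing notes, Trimmomatic 0.36, STAR 2.5.2b, featureCounts and Subread 1.5.2 were used, with the builds GRCh38 and GRCm38; the role of each build, strand use and the handling of multi-mapping reads are not given in the sources used here. Of 49315 identifiers 49056 (99.5%) matched GENCODE M21, which gave the symbols, and coordinates are those of the files on GRCm38. Samples were grouped by title. The members and gene lists were chosen with earlier results of these data known.

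CPM is the count per 1000000 counts of the library. Levels per kb are divided by exonic length. The 6-month groups (3 libraries each) were compared with edgeR 4.0.16 in R 4.3.3: filterByExpr, TMM factors, robust quasi-likelihood fit, prior count 2, calls at a Benjamini-Hochberg adjusted p under 0.05 across the 17755 genes tested. The common biological coefficient of variation was 0.311. Standard errors come from the coefficient and the F statistic. The steps were tested on simulated counts. The 13 files with every gene at 0 entered nothing. The 2 Tfap2b knockout libraries, of another age and with no control of their own, were not tested against another group. They entered the alternative fit of all 8 libraries, in its filter, scaling and estimate of spread. Depth was 11318181 to 17746284 counts per library. Intervals, and the floor of 3 counts for a count of 0, cover counting error only.

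Every Hox gene past the threshold or whose mean in a 6-month group is 1 CPM or more is named with its value in each library. In the other lists, members past the threshold are named, with up to 4 of the highest mean CPM. A few genes that meet these rules enter the counts and sums but are not reported here by name or plotted. Alternatives were median-ratio size factors, total counts, no filter, at least 10 counts in every library, DESeq2 1.42.0, limma-voom (limma 3.58.1), the replicate number as a block, all 8 libraries in one fit, background subtraction and each library left out. Leaving out controls 1 and 2 together was added after seeing the data.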

Additional observations from a re-analysis of the deposited data

Results flagged for a closer look

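The Tfap2b knockout libraries at 3 weeks were not tested against another group, though they entered the alternative fit of all 8 libraries. For 8 of the 22 Hox genes whose mean in a 6-month group is 1 CPM or more, both of these libraries lay above the highest of the 3 control libraries at 6 months, which differ from them in age as well as in genotype, so that the 2 cannot be told apart. The count was made over those 22 genes only. No share over all genes stands beside it, so it is not read as a trait of Hox genes. The lower of the 2 libraries and the highest control had 28.29 and 19.77 CPM for Hoxa3, 4.875 and 4.153 for Hoxa4, and 7.401 and 4.594 for Hoxa9. For Hoxb4 these values were 9.271 and 8.803 CPM, for Hoxb8 7.832 and 7.806, and for Hoxc4 7.353 and 7.162. Hoxc6 had 7.113 against 6.381 CPM and Hoxd8, the one HoxD gene among them, 1.519 against 1.246 CPM. The gap was widest for Hoxa3 and Hoxa9 and very narrow for Hoxb8. The first of the 2 libraries was higher than the second for 7 of these genes, all but Hoxa9, and it is the one with high sebaceous, dermal, fat and vessel markers; the part of those cells was not tested. For Hoxa9 and Hoxb8 the libraries were close to each other, at 7.40 and 8.39 CPM and at 8.02 and 7.83 CPM.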

How the results depend on the processing

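Over 21 Hox genes and 16 alternatives, 302 of 334 log2 fold changes kept their direction and their side of the threshold, 10 lost the threshold, 11 gained it and 11 changed sign. The number of Hox genes past the threshold, 2 here, was 4 with no filter, 6 with DESeq2, 0 with controls 1 and 2 both left out and 0 to 8 with single libraries left out (0 without control 1, control 2 or double knockout 1, and 8 without control 3). Over all genes 2637 were called here, 4809 with no filter, 1729 with the replicate block, 1548 with all 8 libraries in one fit, 437 without controls 1 and 2, and 668 to 7544 with single libraries left out, the most without control 3. Scaling by total counts gave 1376 higher and 1327 lower, against 1111 and 1526. The median over all genes moved to -0.56 with no filter, where that of the Hox genes was -0.94. The sign turned for Hoxa4 without control 2 (0.11), without double knockout 1 (0.053) and without controls 1 and 2 (0.16), with a range of -0.25 to 0.11 over single libraries left out. Leaving out controls 1 and 2 also turned Hoxa9 (0.35), Hoxb2 (0.26) and Hoxb9 (0.54). Over single libraries left out, Hoxb8 ran from -0.46 to 0.084 (above 0 without control 1, 0.038, or double knockout 3) and Hoxc6 from -0.24 to 0.10 (above 0 without control 3, 0.026, or double knockout 1), and Hoxc6 was 0.016 with no filter. With controls 1 and 2 left out, 1 control remains, assumed to vary like the other group. The cause of these changes was not tested.

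For the other lists, the cluster noncoding RNAs had 0 calls here, 1 with no filter, 1 with DESeq2 and 0 to 1 with single libraries left out. The cofactors had 0 here, 1 each with total counts, no filter and DESeq2, and 0 to 3. The Trithorax-type genes had 1 here, 2 each with no filter, at least 10 counts and background subtraction, 3 with DESeq2, 0 with the replicate block and 0 to 5. The Polycomb subunits had 5 here, 3 with all 8 libraries and 1 to 5. The Hoxc13-linked genes had 4 here, 1 with the replicate block, 2 with all 8 libraries, 2 with background subtraction and 1 to 6. The other positional genes had 0 here, 1 with no filter and 0 to 7, the cluster neighbours 2 here and 0 to 6, and the upstream regulators 3 here and 1 to 7. In every list the most calls without 1 library came without control 3, and for the Polycomb subunits the fewest came without double knockout 1.

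The replicate numbers do not pair the samples: deviations of same-numbered libraries correlated at 0.03, -0.16 and -0.06. With the replicate block 3 Hox genes passed, Hoxc4 (log2 fold change 1.23) in addition to Hoxa5 and Hoxa6. The 18 Hox genes not tested did not pass the filter on low counts, and 17 of them had 0 to 22 counts in each library.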
